A study of Mus musculus with 6 samples.

Results

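The wild-type cardiac side population (SP) was described across all genes from 3 of the 6 RNA sequencing libraries of the study, those whose labels name wild-type mice. Each of these 3 libraries held SP cells sorted from the pooled hearts of 4 untreated C57BL/6NRj mice of 8 to 12 weeks. The sorts were made on 22 August 2016, 24 August 2016 and 29 August 2017, and the libraries are called wt 1, wt 2 and wt 3 in that order. On each date a second pool of 4 mice, labelled flt3L-/- (strain C57BL/6Flt3Ltml/mx on a C57BL/6N background), was sorted as well. Except for the values of *Flt3l*, those 3 libraries enter here only where a date needed a second library, and the genotypes were not compared. *Flt3l*, the targeted gene, was read at 8.67, 10.8 and 12.1 CPM in wt 1, 2 and 3. The libraries labelled flt3L-/- had 13.6, 12.4 and 14.4 CPM on these dates. Its transcript count was therefore not lower in the libraries labelled flt3L-/-. Which exons the targeted allele lacks is not given in the sources used here, and 22.1% of the exon bases of *Flt3l* are shared with another gene. CPM are counts relative to the scaled protein-coding total of a library and serve to compare 1 gene across libraries. TPM are counts per kilobase of exon, scaled to sum to the same total in each library, and serve to compare genes. Where 3 values are given for a gene or list, they are those of wt 1, 2 and 3 in that order, and ± is the SD over these 3 libraries unless an SE is named.

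SP cells are defined by function rather than by a surface antigen: their ATP-binding cassette (ABC) pumps clear the DNA dye Hoechst, so that they form a dim tail in flow cytometry. In the adult heart this fraction is known to hold Sca1-positive endothelial, fibroblast-like and perivascular cells and some blood cells, and it has been used as a source of cardiac progenitor cells (CPC). Here the suspension had been depleted of cardiomyocytes and erythrocytes before the sort, and the labels do not say whether a narrower gate such as Sca1-positive, CD31- was set for the RNA. A library is a mixture of all cells in the gate, so a lower level of a marker in it can come from fewer cells of a type or from less RNA per cell, and the 2 cannot be told apart.

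The 3 wild-type libraries held 26775161 to 28294568 counts, and 22198 to 22971 genes had at least 3 counts in each. A count of 3 corresponded to 0.112 to 0.117 CPM, a limit that covers counting error only. Protein-coding genes took 93.3% ± 0.62 (SD, n = 3) of the counts, pseudogenes 3.79% ± 0.471 and long non-coding RNAs 2.14% ± 0.05. Of 21764 protein-coding genes, 12242 (56.2%) reached 1 TPM in all 3 libraries and are called expressed below. Their median level was 18.3 TPM, 1079 of them reached 100 TPM in each library, and 63 reached 1000 TPM. RNA was thus concentrated in few genes, since the 100 most abundant genes of a library took 22 to 24.1% of its counts. The share of 56.2% is the background for the counts of expressed genes in the lists below.

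**Figure D1:**
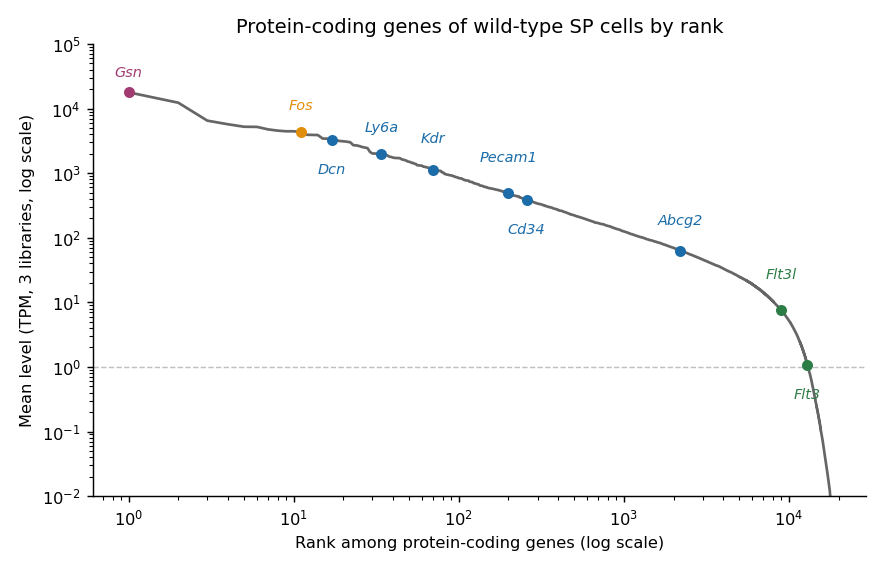
Mean level in TPM of the 3 wild-type libraries (log scale) against rank among protein-coding genes (log scale), with the marker genes, *Gsn*, *Fos*, *Flt3l* and *Flt3* marked and a dashed line at 1 TPM. *Gsn* at 17860.9 TPM leads the curve, *Dcn*, *Ly6a* and *Kdr* lie above 1000 TPM, and *Flt3* at 1.06 TPM lies at the line.

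The leading genes joined cytoskeletal genes, a ubiquitin gene, heat shock genes and a capillary gene. *Gsn*, which encodes the actin-severing protein gelsolin and is abundant in fibroblasts, ranked first with 17860.9 ± 5709.9 TPM (SD, n = 3), at 26342.4, 18538.3 and 14608.0 CPM in wt 1, 2 and 3. The polyubiquitin gene *Ubb* ranked 5 with 5234.3 ± 590.9 TPM. The inducible Hsp70 genes *Hspa1b* (6498.2 ± 570.0 TPM) and *Hspa1a* (4553.3 ± 330.4 TPM) ranked 3 and 8, and *Tmsb4x*, which encodes the actin-binding peptide thymosin beta 4, ranked 4 with 5715.7 ± 790.8 TPM. The mitochondrial gene *mt-Cytb*, the MHC class I light chain gene *B2m* and the fatty acid transporter gene *Cd36* were also among the first 10. *Gm20481*, which ranked 9, shares all of its exon bases with another gene, so its level is uncertain. The curve of level against rank shows how steeply the levels fall behind these genes.

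Because each date had 1 wild-type library, a wild-type library and its sorting date cannot be told apart. Over the 13475 protein-coding genes kept for testing, the Pearson correlation of log2 CPM across genes was 0.952 between wt 1 and wt 2, 0.959 between wt 2 and wt 3 and 0.914 between wt 1 and wt 3, a description, since genes are not independent replicates. The highest and the lowest of the 3 libraries differed by over 2-fold in 2913 genes, 21.6% of those tested, and the median ratio of highest to lowest was 0.46 on the log2 scale. Among the 2111 genes with a mean of 100 CPM or more, 1881 lay within 2-fold, 10.9% did not, and the median coefficient of variation (CV) was 11.9%. In wt 3 against wt 1, 905 genes (6.72%) were over 2-fold higher and 1429 (10.6%) over 2-fold lower, with a median difference over all tested genes of 0.04. These shares are the background for the counts of listed genes given below.

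All 6 genes chosen as markers of the SP were expressed. *Ly6a*, which encodes Sca1, the antigen used to enrich cardiac progenitors, was read at 522.9, 827.4 and 1167.9 CPM and had a mean of 1959.1 ± 697.7 TPM (rank 34). *Kdr*, the VEGF receptor of endothelial cells, was even over dates at 3385.4, 3882.7 and 3444.9 CPM (1120.9 ± 112.3 TPM, rank 70). *Cd34*, a sialomucin of endothelial and hematopoietic progenitors, was as even at 974.6, 1060.8 and 947.0 CPM (386.6 ± 34.6 TPM). The junctional adhesion gene *Pecam1*, which encodes CD31, was read at 873.0, 1156.8 and 1220.5 CPM (491.7 ± 77.7 TPM, rank 199). *Dcn*, which encodes the collagen-binding proteoglycan decorin of fibroblasts, was read at 10551.3, 5126.7 and 4380.4 CPM (3258.9 ± 1686.0 TPM, rank 17) and was thus highest in wt 1, while *Ly6a* was lowest there. *Abcg2*, the dye pump of the SP, was the lowest of the 6 with 146.7, 204.1 and 195.7 CPM (63.2 ± 10.7 TPM, rank 2203). The markers of endothelium and of fibroblasts were both abundant in every library.

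The dye pumps themselves were moderately expressed. Of 27 ABC transporter genes, 24 were expressed, with a median of 20.5 TPM, and their summed level was 1935.8, 1947.0 and 1782.6 CPM. *Abca8a*, a lipid transporter gene, led the list with 106.3 ± 39.6 TPM. *Abcb1a*, a gene of the multidrug pump P-glycoprotein that also exports Hoechst dye, followed with 121.1, 152.8 and 156.0 CPM (74 ± 9.32 TPM), and *Abcg2* came next. *Abcb1b*, the other P-glycoprotein gene and chosen after its values were seen, had 20.4 ± 3.08 TPM.

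Endothelial genes were expressed without exception. All 25 genes of the endothelial list reached 1 TPM, with a median of 236.2 TPM, and their sum was 13269.7, 15983.3 and 16102.3 CPM. Only 1 of the 25 differed by over 2-fold between libraries, 4% against 21.6% of all tested genes. After *Kdr*, the list was led by *Esam*, an endothelial adhesion gene, with 768.8 ± 193.4 TPM and by *Eng*, the TGF-beta co-receptor endoglin, with 580.6 ± 76.1 TPM. Among genes chosen after their values were seen, *Cdh5*, the VE-cadherin of endothelial junctions, had 201.9 ± 38.1 TPM, *Tek*, the angiopoietin receptor Tie2, 366.7 ± 61.2 TPM and *Cldn5*, a tight junction claudin, 139.2 ± 22.2 TPM. *Vwf*, which encodes the clotting factor carrier of endothelial cells, was low beside them at 37.5 ± 2.98 TPM and varied little, at 215.5, 220.1 and 201.2 CPM.

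By segment of the vascular tree, genes of capillaries had the highest levels. The 14 capillary genes were all expressed with a median of 394.0 TPM, and their summed level was 8696.2, 12663.1 and 12721.3 TPM. They were led by *Cd36* (4451.1 ± 959.2 TPM), by *Rgcc*, a regulator of the cell cycle (1722.7 ± 196.8 TPM), and by the fatty acid binding protein gene *Fabp4* (1595.8 ± 474.5 TPM). *Fabp4* was read at 1660.5, 2721.3 and 3241.7 CPM and was thus lowest in wt 1, as *Cd36* was with 4185.6, 6154.4 and 6633.5 CPM. All 15 arterial genes were expressed with a median of 59.3 TPM, among them the chemokine gene *Cxcl12* (892.1 ± 140.8 TPM), the elastic fibre gene *Fbln5* (236.0 ± 20.4 TPM) and the Notch ligand gene *Dll4* (177.8 ± 13.3 TPM). Of 12 venous genes 11 were expressed, with a median of 81 TPM. *Ackr1*, a chemokine scavenger of venules, did not reach 1 TPM in every library. Of 10 lymphatic genes 9 were expressed, including *Flt4*, the receptor of VEGF-C, at 63.5 ± 10.7 TPM. The 10 endocardial genes had a median of 15.9 TPM and were led by *Cytl1*, a secreted factor gene, and *Nfatc1*, a transcription factor gene of the endocardium. Their sum was 698.3, 386.7 and 354.5 CPM, and 7 of the 10 differed by over 2-fold between libraries.

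Fibroblast genes rivalled the endothelial genes in level and varied more. Of 25 genes of the list 24 were expressed, with a median of 169.6 TPM, and the sum was 48887.6, 34036.2 and 25647.9 CPM. Summed TPM of the fibroblast list over that of the endothelial list was 5.42, 3.04 and 2.24 in wt 1, 2 and 3. Without *Gsn* the ratio was 1.95, 1.03 and 0.73, so which list was the higher in wt 3 rests on that gene. *Gsn*, *Dcn* and *Lum*, which encodes the collagen-binding proteoglycan lumican and was read at 2116.2, 990.0 and 709.4 CPM, led the list. Of genes chosen after their values were seen, *Pdgfra*, the PDGF receptor that marks mesenchymal cells, was the more even at 267.2, 243.3 and 208.0 CPM (67.8 ± 10.2 TPM). *Col1a1*, a chain of the main fibrillar collagen, was read at 1063.4, 756.0 and 356.8 CPM (315.8 ± 159.2 TPM). *Tcf21*, a transcription factor gene of cardiac fibroblasts, had 41.2 ± 13.8 TPM.

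**Figure D2:**
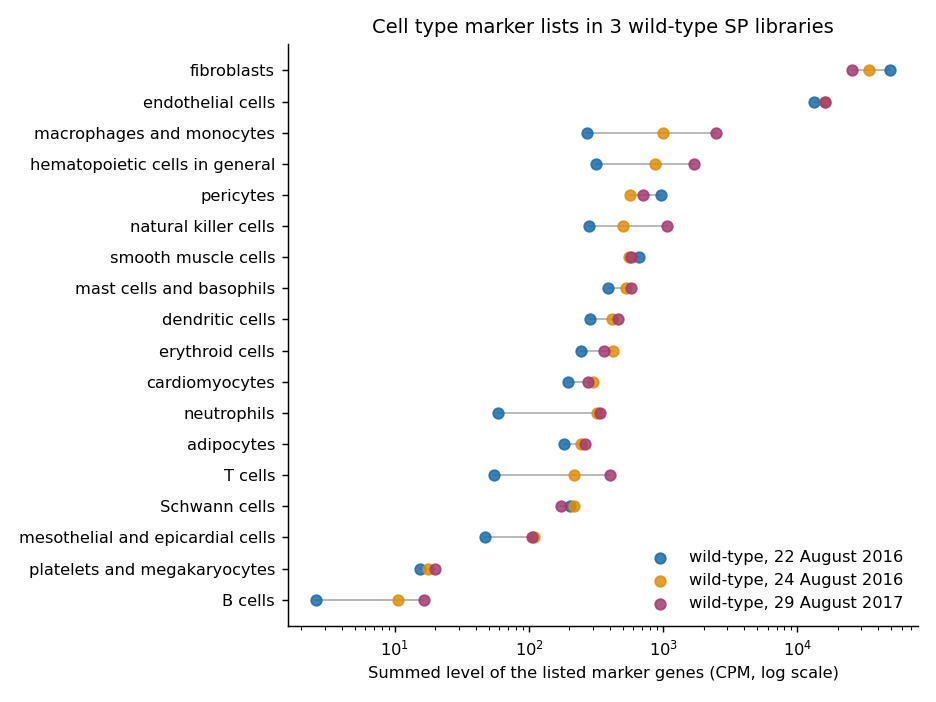
Summed CPM of each cell type marker list (log scale), 1 point per wild-type library coloured by sorting date, lists ordered by their mean. Fibroblast and endothelial lists lie between 13269.7 and 48887.6 CPM in every library, and the lists of blood cells span the widest ranges, such as 269.9 to 2491.1 CPM for macrophages and monocytes.

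Genes of mural cells were low beside those of endothelium. Of 14 pericyte genes 12 were expressed, with a median of 15.4 TPM, and summed TPM of the endothelial list was 11.4, 21.6 and 17.5 times that of the pericyte list. The adhesion gene *Mcam* (123.8 ± 46.4 TPM), the PDGF receptor gene *Pdgfrb* (116.4 ± 49.7 TPM) and *Rgs5*, a G protein regulator of pericytes (86.4 ± 32.8 TPM), led it. The smooth muscle list had 9 of 13 genes expressed, and the contractile genes *Cnn1*, *Lmod1* and *Actg2* and their coactivator *Myocd* did not reach 1 TPM in every library. *Acta2*, smooth muscle actin, was read at 62.5, 24.8 and 25.9 CPM (48.9 ± 28.4 TPM).

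Marker lists of other heart cells had low sums. Of 20 cardiomyocyte genes 15 were expressed, beside 56.2% of all protein-coding genes. The 20 had a median of 10.6 TPM and summed to 193.8, 302.2 and 274.2 CPM. They were led by the oxygen store gene *Mb* (65.5 ± 20.2 TPM), cardiac actin *Actc1* (42.2 ± 15.7 TPM) and troponin I *Tnni3* (34.5 ± 6.91 TPM). *Mb* shares 31.9% of its exon bases with another gene. Of 15 mesothelial and epicardial genes 4 were expressed, and the list summed to 47, 109.1 and 105.3 CPM. Its member *Wt1*, a transcription factor gene of the epicardium, was even at 19.5, 21.1 and 23.9 CPM, while the mesothelial genes *Msln* (0.467, 10.3 and 14.5 CPM) and *Upk3b* (0.894, 11.6 and 12.8 CPM), chosen after their values were seen, were low in wt 1. Of 11 Schwann cell genes 4 were expressed, and the lineage factor gene *Sox10* did not reach 1 TPM in every library. Of 10 adipocyte genes 2 were expressed, *Pparg* and *Lipe*, which endothelial cells also use, and 6 had fewer than 3 counts in each library. Erythroid transcripts were those of hemoglobin, with *Hba-a1* at 122.0, 211.4 and 183.6 CPM (600.8 ± 163.2 TPM). The red cell genes *Slc4a1* and *Klf1* did not reach 1 TPM in every library.

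Leukocyte genes in general, of macrophages and of lymphocytes had their lowest sums in wt 1 and their highest in wt 3. The 12 general hematopoietic genes summed to 316.8, 862.8 and 1704.6 CPM, and 11 of the 12 were over 2-fold higher in wt 3 than in wt 1, against 6.72% of all tested genes. The list was led by *Cd53*, a tetraspanin of leukocytes, at 26.8, 111.8 and 229.2 CPM. *Ptprc*, which encodes the pan-leukocyte antigen CD45 and was chosen after its values were seen, was read at 96.4, 246.5 and 595.6 CPM (47.6 ± 37.4 TPM). Among 21 macrophage and monocyte genes, 15 of the 18 tested were over 2-fold higher in wt 3 than in wt 1, and the sum was 269.9, 999.8 and 2491.1 CPM. *Lyz2*, the lysozyme gene of myeloid cells, was read at 17.1, 506.7 and 1526.7 CPM, so that its rank of 53 by mean TPM came from the later libraries. *Adgre1*, which encodes the macrophage antigen F4/80, reached 13.4 CPM at most.

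The T cell list summed to 55, 214.8 and 400.4 CPM, and all 12 of its tested genes were over 2-fold higher in wt 3 than in wt 1. All 15 natural killer cell genes were expressed, with a sum of 282.1, 504.8 and 1067.3 CPM, led by the chemokine gene *Ccl5* at 36.3, 89.4 and 187.1 CPM. The neutrophil list summed to 58.5, 320.3 and 336.9 CPM, its summed TPM was highest in wt 2 (30.4, 409.3 and 369.7 TPM), and 2 of its 12 genes were expressed in all 3 libraries. *S100a8* and *S100a9*, whose products form calprotectin, had 0.233 and 0.428 CPM in wt 1 and over 12 CPM in both others. B cell genes were near absent at 2.6, 10.6 and 16.6 CPM in sum, with 2 of 12 expressed. Platelet genes summed to 15.3, 17.8 and 19.8 CPM. The mast cell and basophil list was the more even at 386.8, 532.4 and 575.3 CPM, but 6 of its 10 genes were lower in wt 3 than in wt 1 (median log2 difference −0.10), and its leading gene *Gata2* is also used by endothelial cells.

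The libraries labelled flt3L-/- had another order over the dates. There the general hematopoietic list summed to 407.2, 979.6 and 270.1 CPM on 22 August 2016, 24 August 2016 and 29 August 2017, and the macrophage list to 702.8, 1421.9 and 450.2 CPM. Both sorts thus had higher values on 24 than on 22 August 2016, while on 29 August 2017 wt 3 was the highest of the wild-type libraries and its partner the lowest of the other 3. Fibroblast genes likewise summed to 25289.8, 38370.3 and 12194.3 CPM there, highest on 24 August 2016, where wt 1 was the highest of the wild-type libraries.

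Immediate early genes, which cells switch on within minutes of a stimulus, were among the most abundant transcripts of the SP cells. All 28 genes of the list were expressed, with a median of 632.5 TPM, and their sum was 38485.5, 27108.2 and 26454.4 CPM. *Fos* (4365.0 ± 600.1 TPM), *Egr1* (3931.5 ± 1003.4 TPM) and *Junb* (3904.0 ± 439.4 TPM) ranked 11, 12 and 13 of all protein-coding genes. Of the 28, 27 were lower in wt 3 than in wt 1 and 9 were over 2-fold lower, against 10.6% of all tested genes. *Ptgs2*, which encodes the inducible prostaglandin synthase and is no member of the list, was read at 1289.1, 274.7 and 426.5 CPM, and *Nr4a1*, an orphan nuclear receptor gene of the list, at 1753.5, 649.5 and 689.2 CPM. Both were highest in wt 1, with wt 2 and wt 3 near each other.

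Heat shock genes had a lower median level than the immediate early genes and were more even. All 17 were expressed, with a median of 300.3 TPM, and they summed to 25738.2, 24423.2 and 25764.9 CPM. By mean TPM, *Hspa1b* and *Hspa1a* stood above every immediate early gene. None of the 17 differed by over 2-fold between libraries, against 21.6% of all tested genes. The largest, *Hspa1b*, was read at 5840.0, 6858.1 and 6603.1 CPM, and *Hspa5*, the Hsp70 of the endoplasmic reticulum, at 6075.7, 4072.5 and 4409.9 CPM. The mitochondrial chaperonin pair *Hspd1* (161.0 ± 12.3 TPM) and *Hspe1* (63.3 ± 6.52 TPM), which was chosen after its values were seen, was lower. All cells had gone through enzymatic digestion and dye staining before the sort, and the level of both gene groups in the intact heart was not tested.

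Promoter sequences are shown for 1 gene of each kind of element, since both gene groups are known to be read from short response elements. The 250 bases before the RefSeq start of 32851 mouse transcripts (GRCm38.p6) were searched on both strands for the CArG box of serum response factor, the CRE (TGACGTCA) and a heat shock element of the blocks GAA, TTC and GAA with any 2 bases between them, and none of the 3 promoters shown held a match to another of these motifs. Capitals mark the match, and in *Hspd1* they mark 2 overlapping matches. The promoters lie on the minus strand at chr7:28379229-28379478 for *Zfp36*, an immediate early gene for an mRNA decay factor, at chr1:134079156-134079405 for *Btg2*, an antiproliferative immediate early gene, and at chr1:55087933-55088182 for *Hspd1*.
Zfp36: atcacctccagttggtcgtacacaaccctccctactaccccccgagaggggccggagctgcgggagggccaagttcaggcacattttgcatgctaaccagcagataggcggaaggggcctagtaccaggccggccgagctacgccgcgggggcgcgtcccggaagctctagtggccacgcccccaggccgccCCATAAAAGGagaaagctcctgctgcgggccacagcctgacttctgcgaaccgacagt
Btg2: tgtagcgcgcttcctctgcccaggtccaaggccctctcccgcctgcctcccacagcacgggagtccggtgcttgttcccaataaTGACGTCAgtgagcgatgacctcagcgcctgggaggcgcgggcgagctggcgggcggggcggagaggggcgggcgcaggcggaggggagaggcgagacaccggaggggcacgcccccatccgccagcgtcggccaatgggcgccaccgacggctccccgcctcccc
Hspd1: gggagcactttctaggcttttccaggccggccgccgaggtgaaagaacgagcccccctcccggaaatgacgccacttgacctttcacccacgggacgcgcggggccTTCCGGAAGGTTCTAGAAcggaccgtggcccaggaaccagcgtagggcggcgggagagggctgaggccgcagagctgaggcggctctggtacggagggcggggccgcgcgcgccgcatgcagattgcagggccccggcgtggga

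The CArG box stood 58 bases before the start of *Zfp36*, whose transcript was read at 1617.2, 1103.8 and 1246.6 CPM, and the CRE stood 166 bases before the start of *Btg2*, at 1071.9, 861.8 and 890.8 CPM. The promoter table covered 22 of the 28 immediate early genes and 12 of the 17 heat shock genes, and the shares below are of the promoters covered. Of 28 promoters of 22 immediate early genes, 5 (17.9%), all of *Egr2* and *Zfp36*, held a CArG box, against 1.47% of all promoters, and 3 (10.7%) held a CRE, against 1.55%. Of 17 promoters of 12 heat shock genes, 2 (11.8%), those of *Hspd1* and *Hspe1*, held the heat shock element, against 0.466% of all promoters. By gene this was 2 of 22 for the CArG box, 3 of 22 for the CRE and 2 of 12 for the heat shock element. Windows of 1 gene or of neighbouring genes can overlap, so the shares do not count independent sequences. A match describes the letters in the window and no more.

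Immediate early genes also led the transcription factors. Of 524 genes in the transcription factor lists 325 (62%) were expressed, near the 56.2% of all protein-coding genes, and 191 reached 10 TPM in all 3 libraries. Of the 15 with the highest mean, *Fos*, *Junb*, *Jun*, *Jund*, *Atf3* and *Atf4* encode basic leucine zipper proteins, *Egr1* a zinc finger, *Klf2* and *Klf6* Krüppel-like factors, *Nr4a1* a nuclear receptor, and *Id1*, *Id2* and *Id3* the inhibitors of basic helix-loop-helix factors. *Id3* (3115.0 ± 252.6 TPM) and *Id1* (2009.4 ± 165.0 TPM), targets of BMP signals in endothelium, stood close to the activator protein 1 genes. *Ets1*, an ETS factor of vessel growth, was the most even of the 15 at 1075.0, 1048.1 and 1041.5 CPM, with a CV of 1.68%. *Jund* (1143.1, 846.3 and 106.1 CPM) and *Klf2*, the flow-responsive factor of endothelium (412.6, 391.5 and 65.6 CPM), stood apart in wt 3, as the points of these factors by date show. *Jund* shares 52.6% of its exon bases with another gene and is uncertain.

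**Figure D3:**
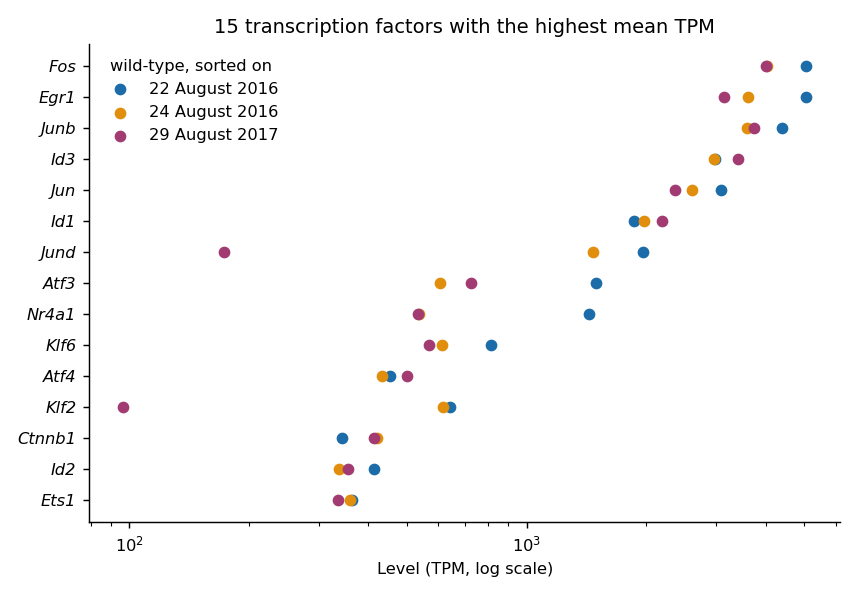
Level in TPM (log scale) of the 15 transcription factors with the highest mean, 1 point per wild-type library coloured by sorting date. Most factors keep their place on all dates, and *Jund* and *Klf2* lie far lower in the library of 29 August 2017.

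Factors known from the endothelial lineage were expressed in several families. The ETS family had 16 of 26 genes expressed and the most even sum of all factor lists at 2464.5, 2489.0 and 2427.4 CPM, with *Fli1* (154.9 ± 15.1 TPM) and *Elk3* (128.8 ± 14.8 TPM) behind *Ets1*. Its member *Erg*, an endothelial identity factor chosen after its values were seen, had 10.8 ± 2.19 TPM. Of 20 SOX genes 8 were expressed, led by *Sox18* (236.2 ± 66.6 TPM) and *Sox7* (153.1 ± 7.4 TPM), both factors of vessel development, and by *Sox9* (374.7, 119.9 and 97.3 CPM), a factor of matrix-producing cells that was highest in wt 1. *Sox17*, an arterial factor chosen after its values were seen, had 127.5 ± 27 TPM. *Gata2* (127.4 ± 14.1 TPM) led 5 expressed GATA genes of 7. Among homeobox genes outside the HOX clusters 31 of 58 were expressed, led by *Msx1* (172.1 ± 52.2 TPM), *Meox1* (92.4 ± 12.7 TPM) and *Meox2* (91.8 ± 12.2 TPM), the last a factor of heart capillaries. HOX genes were low, with 6 of 39 expressed and *Hoxa5* the highest at 4.12 ± 1.13 TPM.

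Nuclear receptors had 27 of 49 genes expressed, with *Nr4a1* (835.2 ± 517.9 TPM) above the clock repressor *Nr1d1* (242.1 ± 39.2 TPM). In the lists of interferon, STAT, NF-kB and RUNX factors 26 of 30 were expressed, led by *Irf1* (289.9 ± 41.5 TPM) and *Stat3* (194.5 ± 21 TPM). The Hippo pathway coactivator *Wwtr1*, which encodes TAZ, was even at 600.8, 542.2 and 530.7 CPM (330.8 ± 29.1 TPM).

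Genes of cardiac progenitors were expressed in part. Of 26 listed factors and markers 14 were expressed, beside 56.2% of all protein-coding genes, and the 26 had a median of 2.79 TPM. *Tbx3*, a T-box repressor of the conduction system (77.3 ± 15.7 TPM), the MADS factor *Mef2a* (67.3 ± 7.15 TPM) and *Gata4* led them. *Gata4*, a factor shared by cardiomyocytes, endocardium and fibroblasts, was read at 124.3, 54.1 and 36.2 CPM (52.3 ± 34.6 TPM), and *Tbx20* at 173.9, 63.1 and 41.5 CPM, both highest in wt 1. Of genes chosen after their values were seen, *Isl1*, the factor of the second heart field, did not reach 3 counts in any library, and *Nkx2-5*, the early cardiac factor, reached 1.01 CPM at most (1.05 ± 0.658 TPM). *Kit*, the stem cell factor receptor, had 28, 33.9 and 25.4 CPM (9.28 ± 1.66 TPM).

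Of 15 listed pluripotency genes *Myc*, a growth gene (281.8 ± 196.6 TPM) and *Klf4*, an immediate early gene (214.7 ± 82.3 TPM), reached 1 TPM in all libraries, and 7 had fewer than 3 counts in each. *Myc* was read at 481.0, 175.7 and 149.5 CPM and was highest in wt 1. Among genes chosen after their values were seen, *Sox2* was at 0 in all 3 libraries, *Pou5f1* had 1 library above 0 at 0.0388 CPM, and *Nanog* reached 0.112 CPM at most. These values are at or below the limit of 3 counts, which allows 0.112 to 0.117 CPM.

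Genes of dividing cells were low. Of 20 genes of cycling cells 11 were expressed, beside 56.2% of all protein-coding genes. The 20 had a median of 1.86 TPM, and their sum was even at 119.9, 121.1 and 112.2 CPM. The ribonucleotide reductase gene *Rrm2* (40.1 ± 6.5 TPM) led them. The mitotic genes *Plk1*, *Aurkb*, *Cdk1* and *Ccnb1* did not reach 1 TPM in every library, while *Ccna2*, *Aurka*, *Prc1*, *Top2a* and *Ccnb2* of the same list did. *Mki67*, the proliferation antigen Ki-67 and chosen after its values were seen, had 0.983 ± 0.344 TPM. A list of 28 regulators of the entry into and exit from the cell cycle, which holds kinase inhibitors beside cyclins, cyclin-dependent kinases and *Myc*, had 25 genes expressed, with a median of 32.5 TPM, and is no measure of quiescence. *Btg2* (972.4 ± 129.2 TPM) and the cyclin-dependent kinase inhibitor genes *Cdkn1a* (614.1 ± 79 TPM) and *Cdkn1c* (521.7 ± 108.7 TPM) led that list. *Btg2* and *Cdkn1a* also answer to stress.

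Surface antigens used to sort progenitor and stromal cells were broadly present, with 28 of 31 expressed. *Ly6c1*, an endothelial and monocyte antigen of the Ly6 family, was read at 718.7, 1088.8 and 1623.2 CPM (1916.6 ± 703.5 TPM) beside *Ly6a*, and both were lowest in wt 1. The integrin chain gene *Itgb1*, chosen after its values were seen, had 949.6 ± 26.8 TPM with a CV of 5.58%. *Flt3*, *Thy1* and *Alcam* did not reach 1 TPM in every library. *Flt3*, the receptor of Flt3 ligand, had 0 counts in wt 1 and was read at 2.75 and 4.28 CPM in wt 2 and wt 3 (1.06 ± 0.966 TPM). The dendritic cell list, which holds *Flt3*, was also higher in wt 2 and wt 3 (286.8, 416.9 and 461.0 CPM). So was the general hematopoietic list (316.8, 862.8 and 1704.6 CPM), and the cells that hold the *Flt3* transcript were not tested.

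Secreted signals and their receptors were counted in families. Of 230 ligand genes 133 were expressed, and of 236 receptor genes 162, beside 56.2% of all protein-coding genes. In each of the 29 families that have both kinds in the lists, at least 1 ligand and 1 receptor were expressed. Most families hold several genes of each kind, so this is a weak criterion. All 5 VEGF ligands and all 5 VEGF receptors were expressed, the receptors with a median of 152.2 TPM and the ligands with 37.5 TPM. The ligand *Vegfc* was read at 93.3, 99.3 and 56.5 CPM (96.6 ± 29.6 TPM), and *Nrp1*, the co-receptor shared with semaphorins, at 1344.2, 1522.4 and 1416.9 CPM (413.4 ± 33.3 TPM). The receptor gene *Tie1* (554.1 ± 81 TPM) stood above *Angptl2* (75.9 ± 35.6 TPM), an angiopoietin-like gene that led the ligand side of the same family list. The lists group genes by family, and binding between their members was not tested.

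In other vascular families, the chemokine *Cxcl12* at 892.1 TPM was listed beside its scavenger receptor *Ackr3* at 150.0 ± 26.4 TPM. The sphingosine phosphate receptor *S1pr1* was read at 589.2, 928.0 and 1255.5 CPM (853.9 ± 284.9 TPM) and *Adgrf5*, an adhesion receptor of capillaries, at 1636.4, 2145.2 and 2413.4 CPM (647.2 ± 111.0 TPM). Both were lowest in wt 1, as capillary genes were. In the apelin family the receptor *Aplnr* (103.4 ± 37 TPM) stood above the ligand *Apln* (9.14 ± 0.886 TPM). The adrenomedullin gene *Adm* (203.6 ± 20.6 TPM) and its receptor subunit gene *Ramp2* (197.5 ± 21.5 TPM) were level, though *Ramp2* shares 33.4% of its exon bases. *Edn1*, endothelin 1, had 60.9 ± 17.5 TPM and the receptor *Ednrb* 136.5 ± 24.2 TPM. Among Notch genes *Dll4* (177.8 ± 13.3 TPM) was even, and *Notch4* was read at 187.1, 260.6 and 76.1 CPM and was lowest in wt 3.

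Growth factors of the mesenchyme were present too. *Gas6*, the ligand of TAM receptor kinases, was even at 709.9, 765.7 and 691.9 CPM (803.7 ± 66.9 TPM), and its receptor *Axl* had 289.0 ± 54.6 TPM. *Pdgfd* (282.7 ± 43.3 TPM) led the PDGF ligands and *Pdgfrb* (116.4 ± 49.7 TPM) the receptors. *Kitl*, the stem cell factor, had 203.7 ± 35.5 TPM. *Csf1r*, the leading receptor of its class, was read at 11.1, 46.5 and 80.3 CPM, in the order of the macrophage list that holds it. *Igf1* was read at 281.3, 182.4 and 111.3 CPM and *Tgfb3* at 172.2, 99.6 and 81.3 CPM, in the order of the fibroblast list. *Ccn1*, a matricellular gene, was read at 2375.5, 1558.6 and 1385.9 CPM (2495.1 ± 784.1 TPM), and *Thbs1*, thrombospondin 1, at 4502.7, 1001.3 and 1898.1 CPM (1152.1 ± 864.1 TPM). Of 24 Wnt ligand genes 6 were expressed, led by *Wnt11* (19.1 ± 9.61 TPM), against 12 of 18 Wnt receptor genes, led by *Fzd4* (164.9 ± 29.9 TPM). Of 39 chemokine genes 24 were expressed, and of 11 FGF genes 3.

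Among matrix genes, all 17 basement membrane genes were expressed, with sums of 13029.5, 16086.8 and 13351.4 CPM, led by the matricellular genes *Sparcl1* (2013.1 ± 205.7 TPM) and *Sparc* (1518.8 ± 268.8 TPM) and by *Col4a1* (1317.6 ± 201.4 TPM). Of 43 collagen genes 25 were expressed, and 16 of the 35 tested were over 2-fold lower in wt 3 than in wt 1, against 10.6% of all tested genes. *Col3a1* was read at 2190.9, 2552.2 and 1008.5 CPM. Genes of fatty acid uptake and oxidation summed to 7934.9, 11527.9 and 13266.8 CPM, with *Gpihbp1*, the anchor of lipoprotein lipase on capillaries, at 299.7, 442.2 and 727.0 CPM. Of 22 glycolysis genes 21 were expressed, and 1 of the 21 tested differed by over 2-fold between libraries.

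Antigen presentation genes were abundant. All 16 MHC class I genes were expressed, with sums of 7178.3, 9159.2 and 10382.7 CPM, led by *B2m* (4760.6 ± 825.9 TPM) and *H2-D1* (3892.9 ± 631.5 TPM). Of 40 interferon-induced genes 38 were expressed. Of 86 ribosomal protein genes 84 were expressed with a median of 35.4 TPM, and 82 of the 84 tested were higher in wt 3 than in wt 1, by a median of 0.62 on the log2 scale, though only 6 differed by over 2-fold between libraries.

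Genes of mitochondrial DNA differed between all 3 libraries in the same direction. Of 13 respiratory chain genes 9 were expressed and summed to 4402.9, 7808.2 and 9852.3 CPM, and all 9 were over 2-fold higher in wt 3 than in wt 1. *mt-Cytb* was read at 1242.1, 2291.9 and 2806.3 CPM and *mt-Co1* at 1165.7, 1943.8 and 2524.5 CPM. In the libraries labelled flt3L-/- the same list summed to 5309.2, 9386.4 and 17226.3 CPM on the 3 dates, so the order by date was that of the wild-type libraries. *mt-Co2*, *mt-Co3*, *mt-Atp6* and *mt-Atp8* had at most 1 count in any wild-type library.

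How far the dates differ was then tested with all 6 libraries, which give each date 2 libraries. In edgeR's quasi-likelihood test of the date term, with the genotype as a covariate, 0 of 13475 genes (0%) had an adjusted p under 0.05, the smallest adjusted p was 0.501, and 1116 genes (8.28%) had an unadjusted p under 0.05. DESeq2's likelihood ratio test of the same models called 389 genes (2.89%). For 24 August against 22 August 2016, edgeR called 0 genes, with 421 (3.12%) at an unadjusted p under 0.05, and DESeq2 called 15 (0.111%). For 2017 against 22 August 2016, edgeR called 0, with 1851 (13.7%) unadjusted, and DESeq2 called 734 (5.45%), of which 660 were lower in 2017. For 2017 against 24 August 2016, edgeR called 0, with 941 (6.98%) unadjusted, and DESeq2 called 135 (1%), of which 133 were lower in 2017. These unadjusted counts moved with single libraries. For 24 against 22 August 2016 the count became 809 without wt 2, 737 without wt 3 and 718 without the library labelled flt3L-/- of 2017. For 2017 against 22 August 2016 it became 1118 without wt 1 and 1166 without its partner labelled flt3L-/-, and for 2017 against 24 August 2016 it became 563 without the library labelled flt3L-/- of 2017. Each such fit leaves 1 date with a single library, so these counts do not show which dates differed in more genes. For the date term the count became 726 without wt 1 and 731 without its partner. Leaving out the library labelled flt3L-/- of 24 August 2016 raised the edgeR count of 2017 against 22 August 2016 from 0 to 106.

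**Figure D4:**
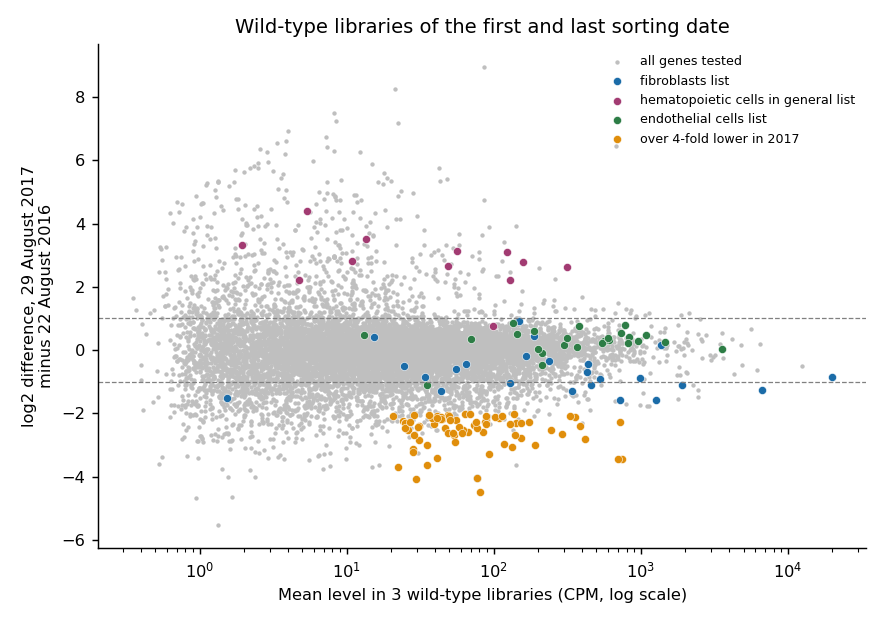
Log2 difference of wt 3 (29 August 2017) minus wt 1 (22 August 2016) against the mean CPM of the 3 wild-type libraries (log scale) for all tested genes, with dashed lines at 2-fold. Most endothelial genes lie near 0, 22 of the 25 above it, most fibroblast genes below and hematopoietic genes above. The genes over 4-fold lower in wt 3 than in both other wild-type libraries lie under −2.

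The 10 genes with the smallest p in the date test were all lower in 2017 than on 22 August 2016. *Ptx3*, a long pentraxin of innate defence, was read at 308.4, 91.6 and 24.7 CPM in wt 1, 2 and 3 and at 131.8, 26.1 and 9.3 CPM in their partners labelled flt3L-/-. The 2017 libraries were lower than those of 22 August 2016 in both pairs, by −3.74 ± 0.221 (log2, SE, edgeR's quasi-likelihood test, Benjamini-Hochberg adjusted p = 0.175). *Adamts2*, which trims the ends of procollagens, was read at 197.4, 177.4 and 23.7 CPM, and at 108.4, 64.7 and 10.1 CPM in the libraries labelled flt3L-/- (−3.25 ± 0.217, adjusted p = 0.175 in the same test). *Dact1*, a Wnt signal modulator, was read at 46.8, 39.5 and 2.68 CPM, and the TGF-beta binding protein gene *Ltbp3* at 288.7, 159.3 and 58.8 CPM. *Itgav*, the integrin chain that binds latent TGF-beta, was read at 171.7, 106.1 and 44.6 CPM and the axon guidance gene *Ntn1* at 56, 48.1 and 14.5 CPM. In the wild-type libraries each of these was lower at each later date, and wt 3 lay below wt 2 by more than wt 2 lay below wt 1 on the log2 scale in *Adamts2*, *Dact1*, *Ltbp3*, *Itgav* and *Ntn1*. Of the genes with the smallest p in the other direction, *mt-Nd6* was read at 104.5, 199.4 and 263.5 CPM and the MHC class I gene *H2-Q7* at 172.9, 312.0 and 435.0 CPM.

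By lineage, the list medians of wt 3 minus wt 1 on the log2 scale were 0.32 for endothelial cells, −0.86 for fibroblasts and 2.80 for general hematopoietic genes, against 0.04 for all tested genes. Of 25 fibroblast genes 10 were over 2-fold lower in wt 3 than in wt 1 and 0 over 2-fold higher. Of 14 pericyte genes 4 were over 2-fold lower and 2 over 2-fold higher. Of all tested genes 10.6% were over 2-fold lower and 6.72% over 2-fold higher. As the plot of the first against the last date shows, most endothelial genes lie close to the line of no difference. Of the 25, 22 were higher in wt 3 than in wt 1 and 3 lower, against 7101 and 6374 of all 13475 tested genes.

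A sharper pattern, chosen after the values were seen, set wt 3 apart. Among 7312 tested genes with a mean of 20 CPM or more, 76 (1.04%) were over 4-fold lower in wt 3 than in both other wild-type libraries, whereas 3 were as much higher in wt 3. The 76 were led by *Timp2*, an inhibitor of matrix proteases (1279.5, 850.9 and 118.6 CPM), *Igfbp7*, a secreted IGF binding protein of endothelium (902.1, 1076.4 and 188.5 CPM), *Jund* and *Sdc3*, a heparan sulfate proteoglycan (583.0, 585.8 and 83 CPM). They also held *Lamp1*, a lysosomal membrane protein (478.4, 596.6 and 90.8 CPM), *Klf9* (223.3, 193.9 and 45.1 CPM) and *Zfp36l2*, an mRNA decay factor (224.7, 160.1 and 34.7 CPM). wt 1 and wt 2 lay close together in these genes, with a median difference of 0.10 on the log2 scale, while wt 3 lay under wt 2 by a median difference of −2.60. *Rac1*, *Rasip1* and *Ppp2ca* were in the group as well but share 51.4%, 42.9% and 41.3% of their exon bases with another gene.

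The same genes were low in the other sort of that date. In the libraries labelled flt3L-/-, 75 of the 76 were over 2-fold lower on 29 August 2017 than on 22 August 2016, against 780 of all 7312 genes, with a median of −2.33 against 0.02. On 24 August 2016 the library labelled flt3L-/- was also low in them, by a median of −1.80 against 22 August 2016, where wt 2 was not. The transcripts of the 76 had a median GC content of 53.1%, against 49.3% for all 7312. When the 7312 genes were split by GC content into 10 bins, 37 of 731 genes (5.06%) of the top bin, from 57.3 to 69.4% GC, were over 4-fold lower in wt 3 than in wt 2, against 0.683 to 2.19% in the other bins. The median difference between wt 3 and wt 2 over all genes of a bin was 0.01 in the top bin, the lowest of the 10, and 0.02 to 0.07 in the others. The part of GC content in the group was not tested beyond these counts.

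**Figure D5:**
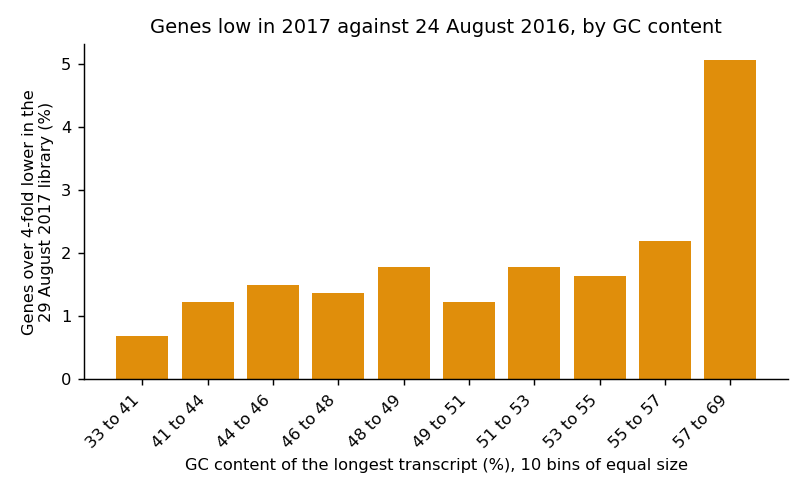
Share of genes (%) that were over 4-fold lower in the wild-type library of 29 August 2017 than in that of 24 August 2016, in 10 bins of equal size by the GC content of the longest transcript (%). The share is 5.06% in the bin of highest GC content and at most 2.19% in the others.

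A second group of 31 genes (0.424%), chosen by the same rule, was over 4-fold lower in wt 1 than in both later libraries. It held *Lyz2*, *Cd53*, *Csf1r*, the lipopolysaccharide co-receptor gene *Cd14* (8.83, 53.3 and 112.9 CPM) and *Tyrobp*, a signal adaptor of myeloid and natural killer cells (10.2, 41.6 and 81.9 CPM). In the libraries labelled flt3L-/- the median of these genes was −1.92 for 29 August 2017 against 22 August 2016, where wt 3 against wt 1 had 3.79, and 1.34 for 24 against 22 August 2016, where wt 2 against wt 1 had 2.96. *F13a1*, the clotting factor XIII chain of resident macrophages, was read at 8.2, 28.8 and 222.4 CPM and *Chil3*, a chitinase-like gene of monocytes, at 0.35, 46.4 and 212.4 CPM, and both were over 4-fold higher in wt 3 than in wt 2.

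At the other end, the most even genes with a mean of 100 CPM or more hardly moved. *Susd6*, which encodes a membrane protein, was read at 205.5, 205.4 and 204.1 CPM (CV 0.378%) and *Hnrnpu*, a nuclear RNA-binding protein, at 849.0, 843.4 and 843.3 CPM (CV 0.383%). *Mff*, a mitochondrial fission gene, was read at 109.0, 109.7 and 108.6 CPM and *Uba2*, a subunit of the SUMO activating enzyme, at 118.6, 119.9 and 118.5 CPM. Among the least even were *Chil3* (CV 129.1%), *Lyz2* (112.7%) and *Wif1*, a Wnt inhibitor gene read at 807.7, 219.0 and 161.4 CPM (90.3%).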

How the data were processed

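Single reads of 81 bases were, per the study's methods, mapped to mm10 with STAR 2.5.2a, with at most 10 hits per read, and reads starting in an exon were counted on Ensembl release 88 without regard to strand. The deposited values are these raw read counts of 50600 genes, not normalized by the authors. The wild-type totals were 27839452, 26775161 and 28294568 counts, and chi-square statistics of 82.6 or more per degree of freedom between them showed that no 2 were copies. The reads carry no molecular identifiers. Exon lengths, biotypes and shared exon bases came from GENCODE M21, which lacks 224 of the genes. Protein-coding genes with over 1 CPM in at least 2 of 6 libraries (13475) were tested in edgeR 4.0.16 (R 4.3.3) with TMM factors, glmQLFit and glmQLFTest with legacy = TRUE, terms for date and genotype, and Benjamini-Hochberg adjustment. Log2 differences between libraries used a prior count of 2. DESeq2 1.42.0 was an alternative. The test was checked on simulated counts with a lower dispersion than the common dispersion of 0.0978 of these data. That check does not measure how many date differences the test could find here.

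By rule, named genes are the 6 markers with *Flt3* and *Flt3l*, the 10 highest by TPM, the 3 highest of each list, the 15 highest transcription factors, the leading ligand and receptor of each family, the 10 smallest p of the date test and 5 per direction of each contrast, and the 5 lowest and 5 highest CV at 100 CPM or more. The members of the 2 groups with over 4-fold differences were picked by their values. The lists and rules were chosen with earlier results of these data known. Alternatives covered normalization, filters, biotypes, the test, thinning, gene length and leaving out each library. The results of some genes are not reported here.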

Additional observations from a re-analysis of the deposited data

How the results depend on the processing

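The number of genes called between dates depended on the test. DESeq2 called 389 genes for the date term and 15, 734 and 135 for 24 against 22 August 2016, 2017 against 22 August 2016 and 2017 against 24 August 2016, where edgeR called 0. Without a filter on low counts edgeR called 4 for 2017 against 22 August 2016, and leaving out 1 library gave 0 to 106 there and 0 for the other contrasts and the date term. The cause was not tested. The number of genes over 2-fold apart was 1198 of 10144 (11.8%) at over 5 CPM in all wild-type libraries, and 1365 to 2334 with 1 wild-type library left out, since a range over fewer libraries is smaller. Summed TPM of fibroblast over endothelial genes averaged 3.57, 2.64 to 4.23 with 1 library left out, and 1.24 without *Gsn*, an alternative chosen after seeing the data. The number of expressed protein-coding genes was 9222 at 5 TPM and 13062 at 0.5 TPM in place of 12242. The biological coefficient of variation over the wild-type libraries was 33.6%, and 29.1 to 41.6% with 1 left out. Removing a GC trend per library, also chosen after seeing the data, gave 0 calls and 2898 genes over 2-fold apart. The named date differences kept their direction under every alternative run. No paired analysis by replicate number was possible because the wild-type and flt3L-/- titles share fewer than 2 such numbers. The 2 libraries of a date are paired by the date and genotype terms of the fit itself, and without the genotype term edgeR called 0 genes, with 1155 at an unadjusted p under 0.05 for the date term.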

Other observations

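Genes of the sex chromosomes were even over the wild-type pools. *Xist*, the RNA of the inactive X chromosome, reached 0.261 CPM at most, while the Y-linked genes *Ddx3y* (238.6, 174.3 and 215.5 CPM), *Eif2s3y* (53.6, 50.4 and 55.1 CPM), *Uty* (45.6, 42.2 and 44.5 CPM) and *Kdm5d* (22.2, 18.9 and 19.3 CPM) were read in all 3. The genes of this and the next paragraph were chosen after their values were seen.

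Among RNAs without a protein, the nuclear transcripts *Malat1* (3465.0, 3294.6 and 4263.9 CPM, mean 1485.3 TPM) and *Neat1* (293.0, 268.0 and 316.0 CPM) and the snoRNA hosts *Gas5* (169.6, 133.1 and 164.3 CPM) and *Snhg1* (57.6, 54 and 68.5 CPM) differed by less than 2-fold between wild-type libraries. The pseudogenes *Gm29216* (1190.7, 1959.8 and 2620.9 CPM), *Gm28437* (1252.8, 2597.7 and 3432.7 CPM), *Gm10925* (1155.1, 2068.1 and 2611.1 CPM) and *Gm28661* (452.1, 975.0 and 1369.3 CPM) had the order over dates of the genes of mitochondrial DNA. Reads of near-identical copies can be split or moved between genes, so the levels of these pseudogenes and of the mitochondrial genes read at 0 are uncertain.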
